A study of Mus musculus with 10 samples.

Results

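Immunoglobulin genes are described here in inguinal white adipose tissue (iWAT), the subcutaneous fat pad of the groin, of male C57BL/6 mice. They were chosen by the deposited biotype (a constant C, variable V, joining J or diversity D gene) and selected on their exon reads, of which 20 or more had to be counted over the 10 mice together. Their abundance is therefore a description. The rule itself used no difference between groups, but the genes were chosen with earlier results of these data known. This left 104 genes of 264 such rows and of 51826 rows in all. They comprised 7 heavy chain constant regions, 1 kappa and 3 lambda constant regions, 42 heavy, 48 kappa and 3 lambda V segments. None of the 14 J rows and 19 D rows had a read, so neither kind is represented. Their exons are short, with 38 to 54 bases for J and 10 to 29 bases for D. Just inside the minimum were Ighv14-1, Ighv5-9-1 and Igkv4-57-1 with 20 reads each, and just outside it were Ighv1-74, Ighv2-9-1, Ighv7-3 and Igkv4-51 with 18 reads each. Among the constant regions, Ighe had 0 reads and Iglc4 had 7, and both were left out.

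The study asked how a low-protein diet (LPD) eaten by male mice changes gene expression in their own fat and in that of their sons, relative to a control diet (CD). Libraries were made from rRNA-depleted total RNA, 1 per mouse, and read as pairs of 36 bases. The F1-CD group held 3 sons of CD fathers and the F1-LPD group held 3 sons of LPD fathers (pLPD offspring). These mice were 5 weeks old, and after weaning the sons of both kinds of father ate the CD. The F0-CD and F0-LPD groups held 2 males each that had eaten the CD or the LPD since weaning and were 10 to 12 weeks old. No group carried a transgene or deletion, and every mother ate the CD. Generation and age coincide and cannot be told apart, and whether the libraries of the generations were made together is not given in the sources used here.

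An antibody is made of heavy and light chains, each with a variable part that binds antigen and a constant part. In a developing B cell, gene segments are joined so that a V segment comes to lie upstream of the constant regions. Naive B cells splice a shared primary transcript into Ighm or Ighd, the heavy chains of IgM and IgD, whereas class switching replaces these with an IgG (Ighg) or IgA (Igha) constant region. The light chain is either kappa or lambda, and kappa is the commoner in mice. B cells and plasma cells make these transcripts, and in mice this fat pad surrounds the inguinal lymph node. Whether the node was removed at dissection is not given in the sources used here.

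Exon reads numbered 6351075 to 10044546 per library, and 0.0551% to 0.0898% of these lay on the 104 immunoglobulin genes. Each F1-LPD library (6351075 to 7087511 reads) was shallower than each F1-CD library (7351881 to 8971136). Raw read counts of the 2 offspring groups are therefore not on the same scale. At these depths, 3 reads, the upper limit that a count of 0 allows, correspond to 0.3 to 0.468 counts per 1000000 reads (CPM). This limit covers counting error alone. The fat tissue was checked against its markers, and the summed level of 9 adipocyte genes was 11620 to 19050 CPM. All 18 genes of a B cell list had reads in every group, with a summed level of 937 to 1452 CPM. The 16 T cell genes summed to 365 to 821 CPM, 11 genes of lymph node stroma and high endothelial venules to 250 to 348 CPM, and 8 genes of salivary and mammary epithelium to 1.53 to 14.9 CPM. Because whole tissue was measured, fewer B cells and less immunoglobulin RNA per B cell cannot be told apart.

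Several immunoglobulin genes are near copies of each other, and coding sequences of those that the counts turn on are printed here from GENCODE vM21, 5′ to 3′ on the gene's own strand, with mm10 coordinates of the whole gene. Iglc2 (chr16:19198396-19200351, minus strand) is shown with Iglc3 (chr16:19065230-19065681) and Iglc1 (chr16:19061618-19062071) because these 3 lambda constant regions share the lambda reads between them. The first 300 bases of each are given, and capitals mark bases that differ from Iglc2. Iglc3 differed at 11 of 299 aligned bases and Iglc1 at 78 of 297.
Iglc2: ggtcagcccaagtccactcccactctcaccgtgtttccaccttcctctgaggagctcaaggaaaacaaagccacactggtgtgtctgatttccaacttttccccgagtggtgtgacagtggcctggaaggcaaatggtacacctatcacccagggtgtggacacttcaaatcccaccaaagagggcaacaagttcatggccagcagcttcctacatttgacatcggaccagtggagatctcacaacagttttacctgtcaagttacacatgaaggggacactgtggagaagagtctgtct
Iglc3: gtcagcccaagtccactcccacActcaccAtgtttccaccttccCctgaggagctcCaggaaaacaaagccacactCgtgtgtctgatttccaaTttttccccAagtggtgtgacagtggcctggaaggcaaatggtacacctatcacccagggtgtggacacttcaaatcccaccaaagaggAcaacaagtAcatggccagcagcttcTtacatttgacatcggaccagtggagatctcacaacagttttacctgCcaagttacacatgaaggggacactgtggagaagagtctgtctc
Iglc1: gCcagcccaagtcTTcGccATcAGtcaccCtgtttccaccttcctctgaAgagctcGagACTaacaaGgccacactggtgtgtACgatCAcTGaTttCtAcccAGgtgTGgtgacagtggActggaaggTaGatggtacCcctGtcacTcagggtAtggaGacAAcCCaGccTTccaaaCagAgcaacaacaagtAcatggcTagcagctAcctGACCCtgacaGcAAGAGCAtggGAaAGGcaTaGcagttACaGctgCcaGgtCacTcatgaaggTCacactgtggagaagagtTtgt
The heavy V segment Ighv1-72 (chr12:115757984-115758461, minus strand), the third most counted of its class, is shown with Ighv1-62-3 (chr12:115460999-115461485), which differed at 2 of their first 300 coding bases, in capitals.
Ighv1-72: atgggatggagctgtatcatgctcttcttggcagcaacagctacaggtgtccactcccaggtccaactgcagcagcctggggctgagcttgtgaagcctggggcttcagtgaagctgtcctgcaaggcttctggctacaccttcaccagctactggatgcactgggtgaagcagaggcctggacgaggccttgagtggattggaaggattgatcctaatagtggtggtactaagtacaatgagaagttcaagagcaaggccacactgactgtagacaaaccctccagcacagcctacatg
Ighv1-62-3: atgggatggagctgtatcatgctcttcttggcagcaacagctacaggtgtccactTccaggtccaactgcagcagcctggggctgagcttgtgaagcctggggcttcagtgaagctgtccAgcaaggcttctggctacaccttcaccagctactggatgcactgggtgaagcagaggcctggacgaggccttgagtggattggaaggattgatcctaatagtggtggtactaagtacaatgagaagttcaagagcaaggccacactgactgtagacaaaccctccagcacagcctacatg
Ighg2b (chr12:113302965-113307933, minus strand), the constant region of IgG2b, is shown with its neighbour Ighg2c (chr12:113285325-113288932) over their first 240 annotated coding bases. They differed at 26 of these, in capitals, and the pair is printed because Ighg2b rose in pLPD offspring, where Ighg2c was too low to be tested.
Ighg2b: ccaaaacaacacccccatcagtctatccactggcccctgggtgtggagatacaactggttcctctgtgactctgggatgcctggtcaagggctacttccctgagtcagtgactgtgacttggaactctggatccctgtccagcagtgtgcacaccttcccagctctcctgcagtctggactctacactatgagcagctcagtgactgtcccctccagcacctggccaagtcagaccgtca
Ighg2c: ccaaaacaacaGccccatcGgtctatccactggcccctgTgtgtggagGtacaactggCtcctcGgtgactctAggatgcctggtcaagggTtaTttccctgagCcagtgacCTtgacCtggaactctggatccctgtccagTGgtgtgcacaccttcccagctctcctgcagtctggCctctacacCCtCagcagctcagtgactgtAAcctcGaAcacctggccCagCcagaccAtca
The kappa constant region Igkc (chr6:70726435-70726966, plus strand) has no such copy, and its first 300 coding bases are printed because few of its reads were nonetheless classed as unique.
Igkc: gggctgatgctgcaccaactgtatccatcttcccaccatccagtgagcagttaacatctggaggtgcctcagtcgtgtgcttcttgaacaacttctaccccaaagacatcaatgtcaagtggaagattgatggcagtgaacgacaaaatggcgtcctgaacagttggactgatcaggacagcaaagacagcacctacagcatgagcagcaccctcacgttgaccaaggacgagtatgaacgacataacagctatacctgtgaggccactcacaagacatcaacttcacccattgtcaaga

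CLC Genomics Workbench, the program used by the study, reported all exon reads of a gene (total) and those it classed as unique. Of 58314 total reads on the immunoglobulin genes, 80.98% were unique. The 4 genes with the smallest unique share were Igkc with 0.285% of 8437 reads, Iglc1 with 0.395% of 507, Iglc3 with 0.454% of 1102 and Iglv1 with 10.9% of 285. These were also the 4 immunoglobulin genes that lay wholly inside another gene row. Igkc lay inside Gm43291, a long intergenic noncoding RNA on the same strand (chr6:70719074-70740554). Iglc1, Iglc3 and Iglv1 lay inside 2010309G21Rik, an antisense gene on the opposite strand (chr16:19051367-19106749). Igkc and Iglc1 shared no stretch of 36 bases with a transcript of any other gene, whereas Ighv1-72 shared 96.68% of its 36-base stretches and had 22.8% unique reads. Ighg2b and Ighg2c shared 7.42% and 11.32% of their stretches with other genes, and 98.8% and 100% of their reads were unique. In the other 100 genes, unique reads made up 22.8% to 100%, with a median of 91.5%. Whether the enclosing rows are the reason for the low unique shares was not tested. Total reads were therefore used for every comparison, and the values of Igkc, Iglc1, Iglc3 and Iglv1 rest mostly on reads that the program did not class as unique.

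**Figure D1:**
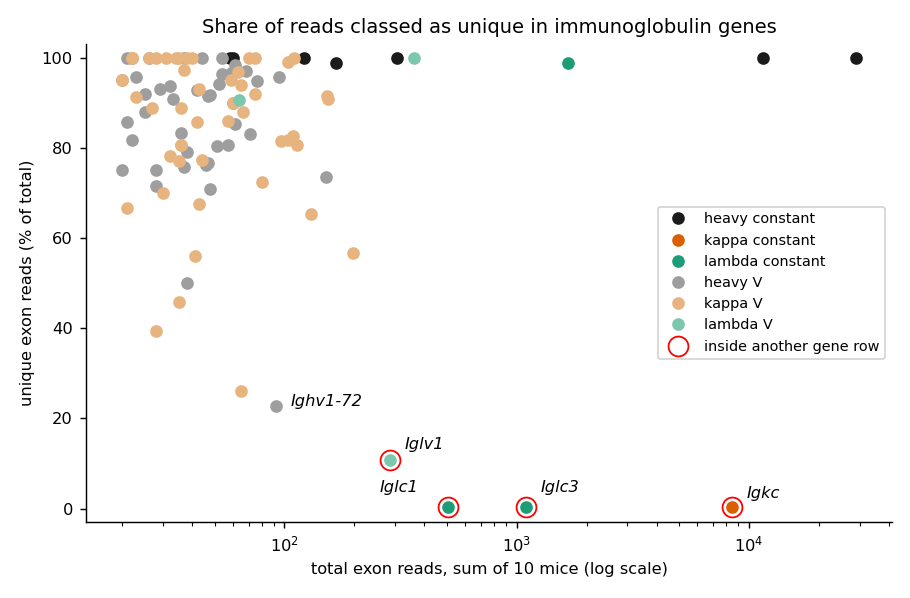
Unique exon reads as a percentage of total exon reads (y axis) against total exon reads summed over 10 mice (x axis, log scale) for the 104 immunoglobulin genes, coloured by class. The 4 genes circled in red lie inside another gene row and have unique shares of 0.285% to 10.9%, and Ighv1-72, which has a near copy, has 22.8%.

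Constant regions held 90.49% of the immunoglobulin reads (52767 of 58314), and Ighm and Ighd together held 98.27% of the heavy chain constant reads. Per exon length, in the deposited reads per kilobase and 1000000 reads (RPKM), the median level over 10 mice was 89.8 for Ighm, 80.7 for Igkc and 34.1 for Ighd. The lambda constant regions followed with 15.98 for Iglc2, 11.97 for Iglc3 and 7.06 for Iglc1, also as median RPKM. The switched isotypes stood far below, at a median RPKM of 0.498 for Igha, 0.426 for Ighg2b, 0.350 for Ighg2c, 0.131 for Ighg3 and 0.107 for Ighg1. On the same scale, Cd79a and Cd79b, the signalling chains of the B cell receptor, were at 21.2 and 25.1. Jchain, which links IgA and IgM into polymers in plasma cells, was at 0.258. Levels of Igha, Ighg2b and Ighg2c overlapped between mice, with RPKM ranges of 0.0629 to 1.89, 0.0234 to 0.726 and 0 to 1.72, so that these 3 are not ordered beyond their spread. Intron reads took a larger part of the IgD than of the IgM constant region, with 17.6% of the reads on the Ighm gene and 49.99% of those on the Ighd gene, over 10 mice. These shares were not scaled to intron length, which is greater in Ighd. Exons take up 1886 bases of Ighm (chr12:113418558-113422730) and 1900 bases of Ighd (chr12:113406604-113416324).

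**Figure D2:**
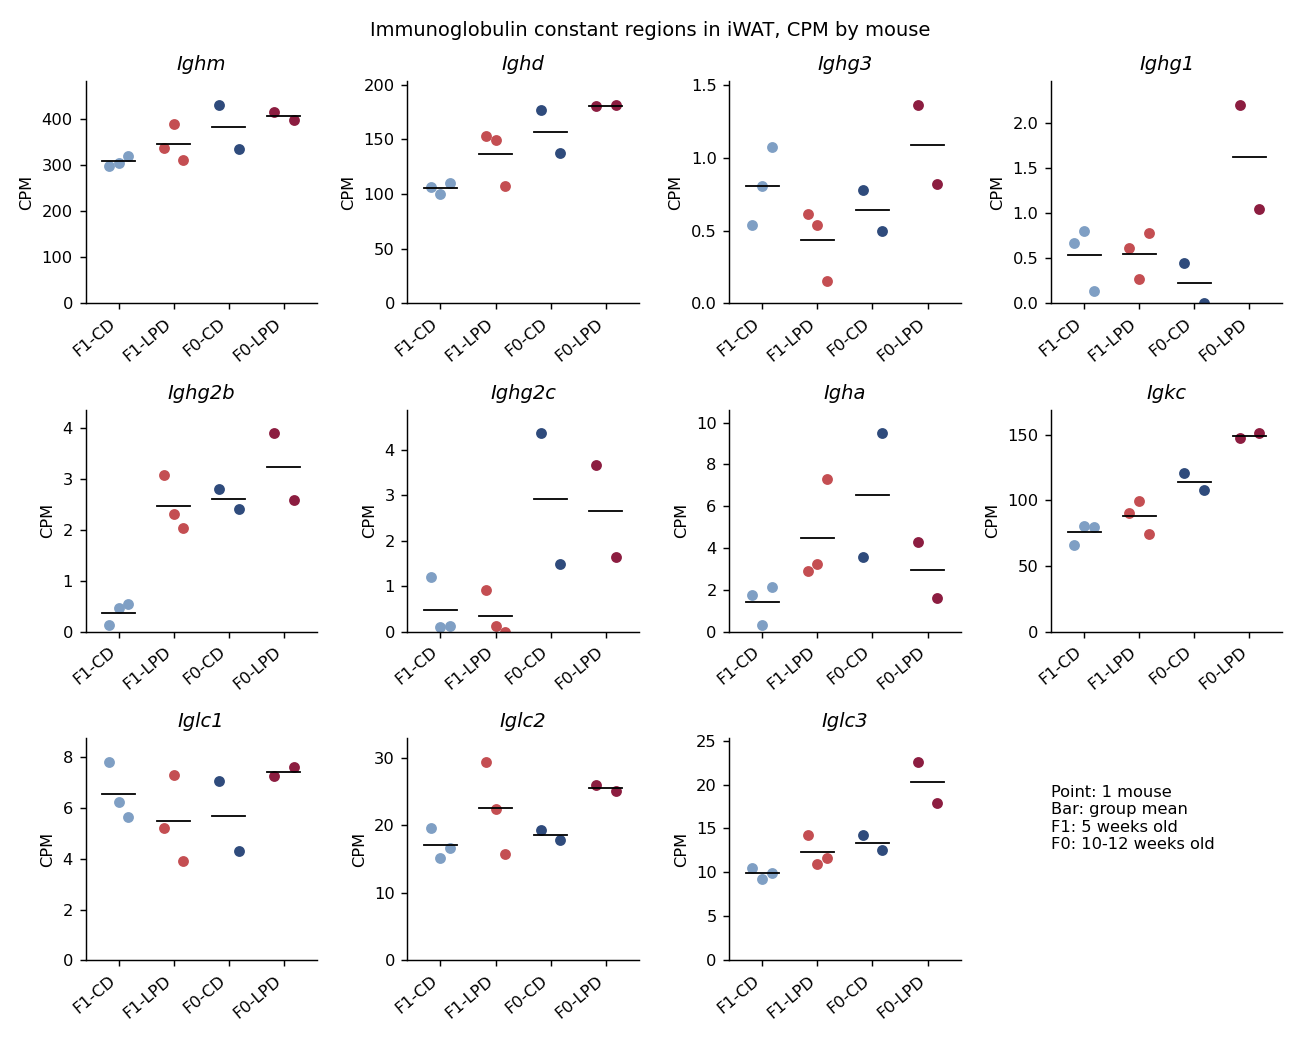
CPM of the 11 immunoglobulin constant regions (y axes, each from 0) in the 4 groups (x axes), with 1 point per mouse and a bar at the group mean. For Ighg2b the 3 F1-CD mice lie at 0.135 to 0.538 CPM and the 3 F1-LPD mice at 2.03 to 3.06, and Igkc is higher in each F0 mouse (108 to 151 CPM) than in each F1 mouse (66.3 to 99.3).

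In the offspring, the IgG2b constant region Ighg2b rose with the paternal LPD. Its total exon reads were 1, 4 and 4 in the 3 sons of CD fathers and 20, 17 and 13 in the 3 pLPD offspring, so the groups did not overlap. The level was 0.379 ± 0.214 CPM (SD, n = 3) against 2.46 ± 0.536 (SD, n = 3), and in 1 of the 3 sons of CD fathers it was below the floor of 3 reads. The fit over all 14049 genes tested (edgeR's quasi-likelihood test, Benjamini-Hochberg adjustment) gave a log2 fold change (log2FC) of 2.64 with a standard error (SE) of 0.52 and an adjusted p of 0.0403. Ighg2b was the 1 gene called among the 20 immunoglobulin genes with enough reads to be tested. It passed the filter through the pLPD offspring alone, where it was high, and with at least 10 reads required in every mouse it was not tested, so the count of 1 lends it no support. In the same fit 0.142% of all genes were called higher, 1.02% lower and 1.17% in either direction. DESeq2 called 0, with 4 at an unadjusted p under 0.05. By edgeR, at an unadjusted p under 0.05, 3 immunoglobulin genes (Ighg2b, Igha and Ighd) were higher and 0 lower, where 6.57% and 8.76% of all genes were. With each of the 6 mice left out in turn, the call was lost 5 times, with an adjusted p of 0.154 and 0.168 without F1-CD replicate 1 and 2, and of 0.124, 0.163 and 0.0588 without F1-LPD replicate 1, 2 and 3. The fold change stayed between 2.27 and 2.93 on the log2 scale throughout, and without F1-CD replicate 3 the call was kept. With reads on the whole gene in place of exons it was 2.59, with an adjusted p of 0.0595.

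The other switched isotypes were low in the offspring. Igha had 13, 3 and 16 reads in the sons of CD fathers and 19, 24 and 47 in pLPD offspring. Each pLPD offspring thus lay above each son of a CD father, as in 5 of the 20 immunoglobulin genes and 9.21% of all genes tested, with the opposite order in 0 of the 20 and 10.9% of all genes. The log2FC of Igha was 1.69 with a SE of 0.55, and its adjusted p of 0.171 in edgeR's test did not pass the threshold. Ighg2c, which takes the place of IgG2a in this strain, had 9, 1 and 1 reads against 6, 1 and 0. Ighg3 had 4, 7 and 8 reads against 4, 4 and 1, and Ighg1 had 5, 7 and 1 against 4, 2 and 5. These 3 IgG genes did not pass the filter on low counts in the offspring, and their groups overlapped.

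Ighm and Ighd, the isotypes of naive B cells, showed a smaller difference. Ighd had 791, 864 and 818 reads in the sons of CD fathers and 998, 1101 and 687 in pLPD offspring, or 106 ± 5.08 against 136 ± 25.5 CPM (SD, n = 3). F1-LPD replicates 1 and 2 were above the CD range and replicate 3 was within it in CPM. The log2FC of Ighd was 0.38 (SE 0.13, adjusted p = 0.179 in edgeR's test), and it was 0.52 with an adjusted p of 0.0286 without F1-LPD replicate 3. Ighd was not called with any other offspring left out or by DESeq2, and it was called in the fit without a filter on low counts. Ighm had 2214, 2627 and 2387 reads against 2198, 2871 and 1994, with a log2FC of 0.18 (SE 0.10, adjusted p = 0.442). Its levels were 308 ± 11.5 and 346 ± 40.04 CPM (SD, n = 3), and the groups overlapped.

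None of the light chain constant regions passed the threshold in the offspring. Igkc had 491, 698 and 595 reads in the sons of CD fathers and 590, 732 and 477 in pLPD offspring, with a log2FC of 0.23 (SE 0.12, adjusted p = 0.414 in edgeR's test). Iglc2 had 145, 131 and 124 reads against 192, 165 and 101, Iglc3 had 78, 80 and 74 against 93, 81 and 75, and Iglc1 had 58, 54 and 42 against 34, 54 and 25. The log2FCs were 0.41 for Iglc2, 0.32 for Iglc3 and -0.24 for Iglc1, with adjusted p of 0.377, 0.417 and 0.734 in the same test. In CPM, Iglc3 was above the CD range in each of the 3 pLPD offspring, whereas Iglc2 and Iglc1 overlapped.

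Summed over the 104 genes, the level was 580, 572 and 604 CPM in the sons of CD fathers and 710, 763 and 584 CPM in pLPD offspring. The log2 ratio of the group means in CPM was 0.228, and F1-LPD replicate 3 lay within the CD range. Summed in the deposited RPKM, which divides by exon length, the level was 274.4, 275.5 and 295.4 against 284.8, 351.7 and 247.7. On that scale F1-LPD replicate 1 lay within the CD range and replicate 3 below it, so this small difference depends on the scale. Of the 20 immunoglobulin genes tested, 18 had a positive log2FC, as did 51.4% of all genes, and their median was 0.351 against 0.007 over all genes. These counts describe the genes that passed the filter, and 84 of the 104 had too few reads to be tested. The 18 B cell genes summed to 1077, 947 and 1156 CPM in the sons of CD fathers and to 1290, 1311 and 937 CPM in pLPD offspring, and F1-LPD replicate 3 lay below the CD range. Of these 18 genes, 16 had a positive log2FC, with a median of 0.14, and none was called, while 1 had an unadjusted p under 0.05 in edgeR's test. Cd79a and Cd79b had log2FCs of 0.14 and 0.15. Of 16 T cell genes, 16 were positive, with 0 called and 14 at an unadjusted p under 0.05, and sums of 536 to 630 CPM against 655 to 821 CPM. In the lymph node list, 5 of 9 genes were positive and 0 called, with 1 at an unadjusted p under 0.05. Krt8 and Krt18, of 4 epithelial genes tested, were called lower in pLPD offspring, where 1.02% of all genes were. The part of these cell types in the immunoglobulin values was not tested.

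**Figure D3:**
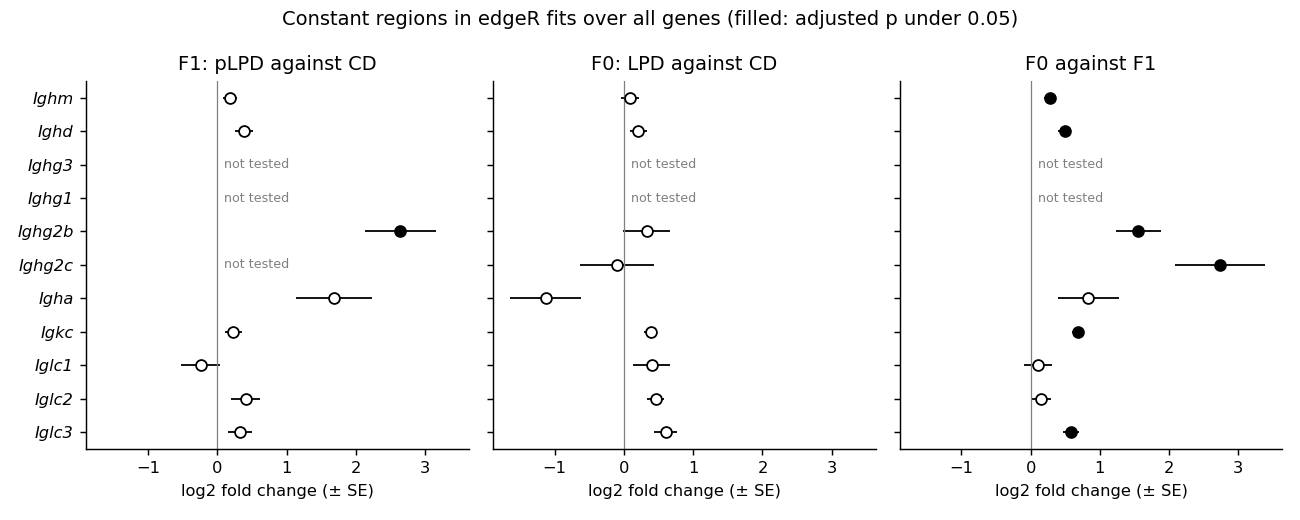
Log2 fold change with its standard error (x axes) of the constant regions (y axis) in edgeR fits over all genes, for pLPD against CD in F1, LPD against CD in F0, and F0 against F1. Ighg1 and Ighg3 in every panel, and Ighg2c in the F1 panel, had too few reads to be fitted and are marked as not tested. Filled points passed an adjusted p under 0.05, which holds for Ighg2b in the F1 panel, for none in the F0 panel and for Ighm, Ighd, Ighg2b, Ighg2c, Igkc and Iglc3 in the third.

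In F0 males, the light chain constant regions had higher values on the LPD, but none passed the threshold. Igkc had 1079 and 1081 reads in the CD-fed males and 1402 and 1292 in the LPD-fed males, or 114 ± 9.05 against 149 ± 2.69 CPM (SD, n = 2). Its log2FC was 0.38 (SE 0.09), with an adjusted p of 0.0708 in edgeR's quasi-likelihood test. Iglc2 had 173 and 178 reads against 247 and 214, with a log2FC of 0.46 (adjusted p = 0.0950), and Iglc3 had 127 and 126 against 215 and 153, with 0.60 (adjusted p = 0.0993). Iglc1 had 63 and 43 reads against 69 and 65, with a log2FC of 0.40 (SE 0.26, adjusted p = 0.537). In CPM, both LPD-fed males lay above both CD-fed males in each of these 4 genes. The same held for 12 of the 30 immunoglobulin genes tested and for 22.8% of all genes, and the opposite order for 1 of the 30 and 23.6% of all genes.

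None of the heavy chain constant regions tested was called between the F0 diets. Ighm had 3848 and 3361 reads in the CD-fed males and 3948 and 3407 in the LPD-fed males, with a log2FC of 0.09 (SE 0.13). Ighd had 1583 and 1374 against 1717 and 1553, with 0.21 (SE 0.12). Their adjusted p in edgeR's test was 0.821 and 0.484. Among the switched isotypes, Ighg2b had 25 and 24 reads against 37 and 22, with a log2FC of 0.33 (SE 0.34, adjusted p = 0.727). Igha had 32 and 95 reads against 41 and 14, and its log2FC of -1.13 (SE 0.51, adjusted p = 0.335) rests on 1 CD-fed male with a high count. Ighg2c had 39 and 15 reads against 35 and 14, Ighg3 had 7 and 5 against 13 and 7, and Ighg1 had 4 and 0 against 21 and 9. Ighg1 and Ighg3 did not pass the filter, and the CD-fed male without an Ighg1 read allows a level of up to 0.3 CPM.

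Of the 30 immunoglobulin genes tested in F0, edgeR's test called 0, where 2.5% of all genes were called, 1.18% higher and 1.32% lower. At an unadjusted p under 0.05, 6 were higher and 0 lower, against 7.53% and 8.2% of all genes. DESeq2 also called 0, with 4 at an unadjusted p under 0.05. The 6 were Igkc, Iglc2, Iglc3, the V segments Iglv1 and Ighv1-26, and Igkv5-43. Of the 30, 19 had a positive log2FC, as did 50.1% of all genes. The summed level of the 104 genes was 854 and 690 CPM in the CD-fed males and 903 and 869 CPM in the LPD-fed males, with a log2 ratio of group means of 0.199. Without F0-CD replicate 1 this ratio was 0.362, and without F0-CD replicate 2 it was 0.0532. The B cell genes summed to 1221 and 1065 CPM in the CD-fed males and to 1452 and 1390 CPM in the LPD-fed males. Of the 18, 17 had a positive log2FC, with a median of 0.31, and Ms4a1 (0.46) and Bank1 (0.52), which encode the surface protein CD20 and a B cell adaptor, were called higher. Of 8 skeletal muscle genes, 5 were called lower on the LPD, with sums of 1692 to 2639 CPM against 806 to 1114 CPM. The part of these cell types in the light chain values was not tested.

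The diet effects of F0 and F1 were compared as an interaction in a fit of all 10 libraries. Of 35 immunoglobulin genes tested, edgeR called 0, where 1.25% of all 15111 genes were called, 0.893% higher and 0.357% lower. DESeq2 also called 0, with 4 at an unadjusted p under 0.05. The difference of the diet effects was positive in 18 of the 35, as in 50.4% of all genes. By edgeR 3 had an unadjusted p under 0.05, 1 higher and 2 lower, where 7.58% and 4.91% of all genes did. These were Ighg2b (log2 difference of the diet effects, F0 minus F1, -2.32, SE 0.65), Igha (-2.81, SE 0.88) and the kappa V segment Igkv6-15 (1.69, SE 0.70). Their adjusted p was 0.114, 0.161 and 0.322. Ighg2b was therefore called in F1 and not in F0, but the difference between the generations did not pass the threshold. In the fit without a filter on low counts Igha and Ighg2b passed it.

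Between the adult F0 males and the 5-week-old offspring, 8 of the 35 immunoglobulin genes tested were called higher in F0 and 0 lower. Of these 8, Ighg2c, Ighv3-6 and Igkv6-25 reached 10 reads in F0 mice alone and passed the filter through the group where they were high. With at least 10 reads required in every mouse, 4 of 8 genes tested were called (Igkc, Ighd, Iglc3 and Ighm). The 8 genes were 22.9% of the 35 tested, in a comparison in which 16.1% of all genes were called higher and 16.4% lower (32.5% in either direction). A positive log2FC was found in 26 of the 35 and in 49.4% of all genes. Igkc had 1079 to 1402 reads in the 4 F0 males and 477 to 732 in the 6 offspring. Its level was 132 ± 20.8 CPM (SD, n = 4) against 81.8 ± 11.7 (SD, n = 6), with a log2FC of 0.68 (SE 0.085) and an adjusted p of 8.68e-05 in edgeR's test. Each F0 male lay above each offspring, which held for 3 of the 35 (Igkc, Ighg2c and Igkv17-127) and for 9.87% of all genes tested. The opposite order held for 0 of the 35 and for 10.2% of all genes. Iglc3 rose by 0.58 on the log2 scale (SE 0.12, adjusted p = 0.00217), from 11.1 ± 1.75 CPM (SD, n = 6) to 16.8 ± 4.44 (SD, n = 4). The neighbouring lambda constant regions Iglc2 and Iglc1, at 0.15 and 0.10, did not pass the threshold (adjusted p = 0.451 and 0.728).

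Among the heavy chain constant regions, 5 were tested between generations. Ighd was at 169 ± 21.3 CPM in F0 (SD, n = 4) and 121 ± 23.6 in F1 (SD, n = 6), a log2FC of 0.49 (SE 0.10, adjusted p = 0.00235). Ighm was at 395 ± 41.6 and 327 ± 33.5 CPM, a log2FC of 0.28 (SE 0.08, adjusted p = 0.0236). The CPM ranges of both genes overlapped between the generations. Ighg2b was at 2.91 ± 0.670 CPM in F0 and 1.42 ± 1.20 in F1, a log2FC of 1.55 (SE 0.32, adjusted p = 0.00277), and pLPD offspring (2.03 to 3.06 CPM) overlapped with F0 males (2.40 to 3.89 CPM). Ighg2c had 39, 15, 35 and 14 reads in the F0 males and between 0 and 9 in the offspring, a log2FC of 2.74 (SE 0.65, adjusted p = 0.00606). Igha, at 0.83 (SE 0.44, adjusted p = 0.166), overlapped between the generations.

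With 1 of the 10 mice left out in turn, 5 to 7 immunoglobulin genes were called, and Igkc, Iglc3, Ighd, Ighg2b and Ighg2c were among them every time. Ighg2c ranged from 2.26 to 3.77 on the log2 scale over these fits. Ighm was lost without F1-CD replicate 1 (adjusted p = 0.0521), F0-CD replicate 1 (0.160) and F0-LPD replicate 1 (0.0699). The 2 V segments among the 8 called, Ighv3-6 and Igkv6-25, rest on few reads. Ighv3-6 had 13, 5, 11 and 11 reads in the F0 males and 1, 7, 3, 0, 0 and 3 in the offspring (log2FC 1.97, SE 0.66, adjusted p = 0.0354 in edgeR's test). Igkv6-25 had 10, 15, 6 and 21 against 5, 1, 2, 7, 6 and 2 (1.46, SE 0.52, adjusted p = 0.0476). Ighv3-6 was called without F1-LPD replicate 3 or F0-CD replicate 2 and did not pass the filter without F1-CD replicate 2 or F0-CD replicate 1. It was lost without F1-CD replicate 1 (adjusted p = 0.0606) or 3 (0.0504), F1-LPD replicate 1 (0.0673) or 2 (0.0775), and F0-LPD replicate 1 (0.0852) or 2 (0.105). Igkv6-25 was lost without F1-CD replicate 2 (adjusted p = 0.0976) or 3 (0.0760), F1-LPD replicate 2 (0.0724) or 3 (0.0836), F0-CD replicate 1 (0.0845) or 2 (0.163), and F0-LPD replicate 2 (0.376).

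Skeletal muscle markers and T cell genes also differed between the generations, in a comparison that called 16.1% of all genes higher and 16.4% lower in F0. The 8 muscle genes, all called higher in F0, summed to 806 to 2639 CPM in F0 and 47.6 to 197 CPM in F1. T cell genes summed to 365 to 517 CPM in F0 and 536 to 821 CPM in F1, and 14 of 16 were called lower in F0. In the lymph node list, Cxcl13, a chemokine that attracts B cells, was called higher (1.07) and 4 of the 10 genes tested were called lower. Of 9 adipocyte genes, 6 were called higher and 1 lower. Of the 18 B cell genes, 15 had a positive log2FC, 6 were called higher and 0 lower, among them Cr2 (0.59) and Blnk (0.57), which encode a complement receptor and a signalling adaptor. Cd79a was at 0.19 and Cd79b at 0.14, and neither was called. The part of these cell types in the immunoglobulin values was not tested.

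Shares of reads within a mouse compare isotypes without a scaling between libraries. Ighd made up 24.8% to 26.3% of the Ighm and Ighd reads in the sons of CD fathers, 25.6% to 31.2% in pLPD offspring and 29.0% to 31.3% in F0 males. The switched constant regions Igha and Ighg made up 1.05%, 0.626% and 0.927% of heavy chain constant reads in the sons of CD fathers and 1.63%, 1.19% and 2.40% in pLPD offspring. The exact 95% binomial intervals of these shares, which cover counting error only, reached from 0.393% to 1.48% in the first group and from 0.882% to 3.05% in the second. Intervals of several pairs of mice overlap, although each pLPD offspring lay above each son of a CD father. In F0 the switched share was 1.93% and 2.85% in CD-fed males and 2.53% and 1.31% in LPD-fed males. In CPM, the switched sum was 3.63 ± 0.951 in the sons of CD fathers and 8.30 ± 1.90 in pLPD offspring (SD, n = 3), and 12.3 ± 3.34 in the 4 F0 males. The higher sum and share in pLPD offspring restate Igha (mean 1.42 against 4.50 CPM) and Ighg2b (0.379 against 2.46). Ighg2c (0.488 against 0.351) and Ighg3 (0.808 against 0.437) were lower in mean CPM, and Ighg1 (0.540 against 0.554) hardly differed.

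Within IgG, Ighg2b held 1 of 19, 4 of 19 and 4 of 14 reads in the sons of CD fathers, or 5.26%, 21.1% and 28.6%. In pLPD offspring it held 20 of 34, 17 of 24 and 13 of 19 reads, or 58.8%, 70.8% and 68.4%. The share was thus higher in each pLPD offspring than in each son of a CD father, on 14 to 34 IgG reads per mouse. It restates the Ighg2b reads tested above and adds no separate support. Of all genes tested in the offspring, 9.21% lay apart in this direction in CPM. In F0 males Ighg2b held 33.3% to 54.5% of IgG reads, between the offspring groups. Lambda constant regions held 27.5% to 36.4% of the light chain constant reads in the 6 offspring and 24.3% to 27.5% in the 4 F0 males. The lambda share was 30.9% ± 4.81 in the sons of CD fathers and 31.3% ± 3.32 in pLPD offspring (SD, n = 3), which differ by less than the spread between mice. This share rests on the total reads of Igkc, Iglc1 and Iglc3, which were hardly ever unique.

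**Figure D4:**
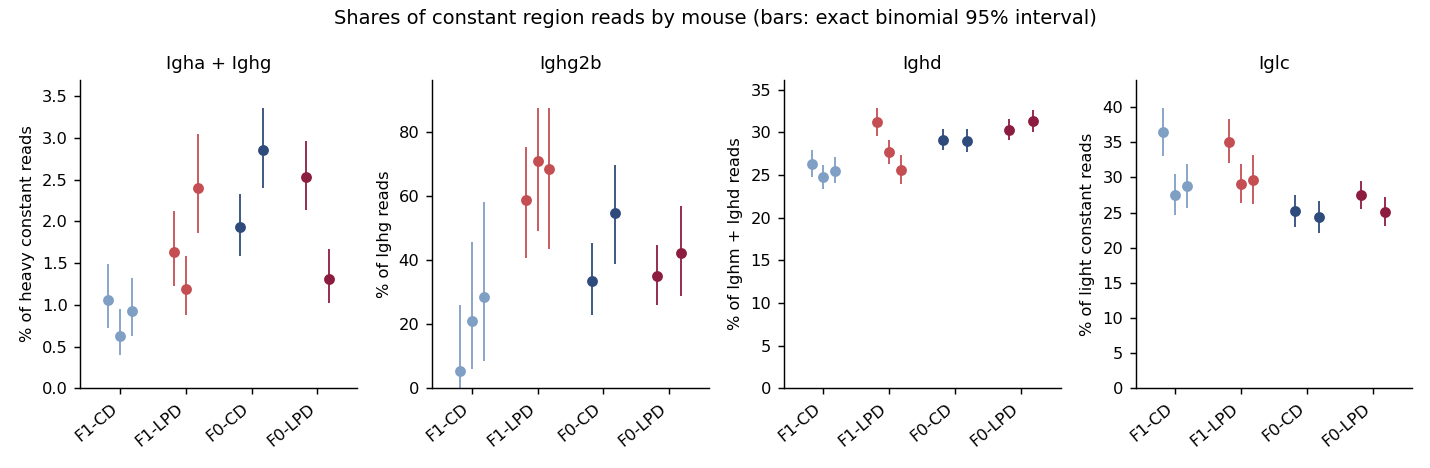
Shares of constant region reads (y axes, percent from 0) by mouse in the 4 groups (x axes), with exact 95% binomial intervals as bars, which cover counting error only. Ighg2b holds 5.26% to 28.6% of IgG reads in the F1-CD mice and 58.8% to 70.8% in the F1-LPD mice, while the lambda share of F1-CD and F1-LPD mice overlaps.

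The V segments were read thinly. Together the 93 V segments held 5547 reads, with a median of 43 reads per segment over the 10 mice, and 53 of them had a read in every mouse. Of all 218 V rows, including those under the minimum, 109 to 159 had a read in a given mouse. No segment dominated a library, since the most counted one held 5.29% to 6.74% of the V reads of a mouse. It was Iglv3 in 8 of the 10 mice, Iglv1 in F0-LPD replicate 2 and Igkv1-110 in F1-CD replicate 1.

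Heavy V reads came mainly from the Ighv1 family, the largest family of the locus, with 25 of the 42 segments and 62.7% of the reads. Kappa V reads were spread more evenly, with 18.1% on Igkv6 (7 segments), 16.6% on Igkv1 (3 segments) and 11.0% on Igkv4 (9 segments). Kappa segments lie in either orientation, and the 19 on the plus strand of the genome held 1370 reads against 1522 on the 29 on the minus strand. The lambda V genes had 361 reads on Iglv3, 285 on Iglv1 and 64 on Iglv2.

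The most counted heavy V segment was Ighv1-26, with 19, 6 and 5 reads in the sons of CD fathers, 16, 15 and 9 in pLPD offspring, 14 and 15 in CD-fed and 30 and 22 in LPD-fed F0 males. It was followed by Ighv1-82 (95 reads over 10 mice), Ighv1-72 (92), Ighv8-8 (76) and Ighv14-2 (71), with 2 to 22 reads per mouse. Among kappa V segments Igkv1-117 led with 17, 23 and 7 reads in the sons of CD fathers, 21, 20 and 14 in pLPD offspring, 27 and 11 in CD-fed and 33 and 25 in LPD-fed F0 males. Next were Igkv10-96 (154 reads over 10 mice), Igkv1-135 (153), Igkv1-110 (130) and Igkv6-15 (113). Igkv1-110 had 33 reads in F1-CD replicate 1 and 3 to 20 in the other mice. These V segments overlapped between the diets of the offspring, with the exception of Igkv6-15, which had 12, 11 and 9 reads in the sons of CD fathers and 6, 7 and 3 in pLPD offspring. Igkv6-15 did not pass the filter there, so it was not among the 20 immunoglobulin genes tested. Of all genes tested in the offspring, 10.9% lay apart in the direction of Igkv6-15.

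By class, heavy V segments summed to 19.3 ± 2.49 CPM in the sons of CD fathers and 24.5 ± 5.85 in pLPD offspring, and kappa V segments to 32.9 ± 4.93 and 32.8 ± 9.08 (SD, n = 3). Lambda V segments summed to 6.98 ± 1.06 and 9.91 ± 1.03, and the 2 groups did not overlap, with 5.80 to 7.87 CPM against 8.73 to 10.6. Of all genes tested in the offspring, 9.21% lay apart in this direction. Within the lambda V class Iglv3 had 22, 30 and 27 reads against 35, 44 and 25, and Iglv1 had 19, 27 and 21 against 27, 30 and 24. Their log2FCs of 0.61 (SE 0.29) and 0.49 (SE 0.29) had an adjusted p of 0.346 and 0.452 in edgeR's test. In F0, lambda V segments summed to 7.54 ± 1.20 CPM in CD-fed and 11.1 ± 0.646 in LPD-fed males (SD, n = 2). Both LPD-fed males lay above both CD-fed males, an order found in 22.8% of all genes tested in F0. Iglv1 had 29 and 21 reads against 45 and 42 there (log2FC 0.86, SE 0.30, adjusted p = 0.200), and Iglv3 had 40 and 40 against 56 and 42 (0.36, SE 0.25, adjusted p = 0.559). Unique reads made up 10.9% of the Iglv1 counts and 100% of the Iglv3 counts.

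**Figure D5:**
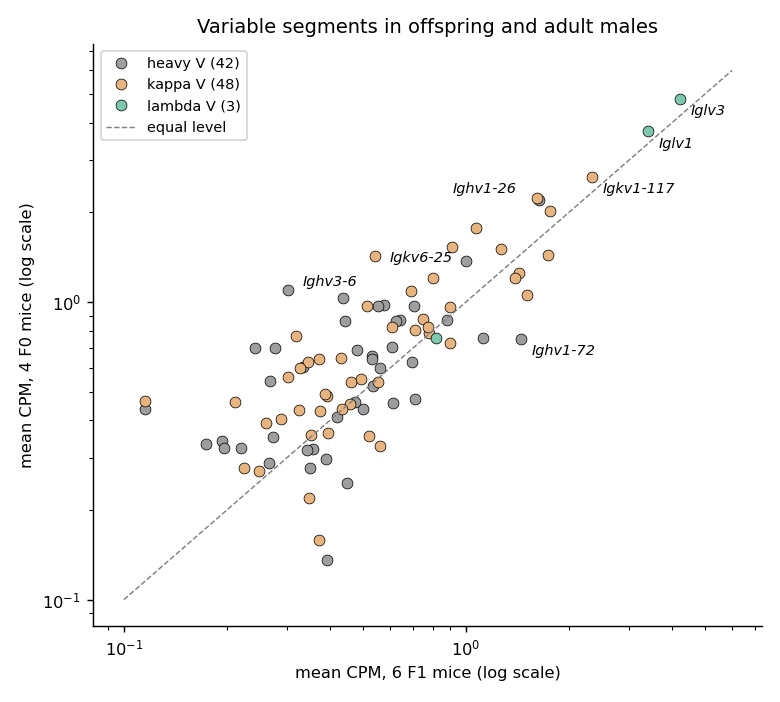
Mean CPM of the 93 V segments in the 6 F1 mice (x axis, log scale) and the 4 F0 mice (y axis, log scale), with a dashed line at equal level. Iglv3 is highest in both (4.22 and 4.82 CPM), and most segments lie under 1 CPM. Ighv3-6 and Igkv6-25 were called higher in F0.

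Genes that act with the immunoglobulins were read from lists written by hand. Of 14 plasma cell genes, 10 were tested in the offspring, where 5 had a positive log2FC and 0 were called, with 2 at an unadjusted p under 0.05. Their sum was 486 to 543 CPM in the sons of CD fathers and 473 to 527 CPM in pLPD offspring. Jchain had 6, 9 and 8 reads against 10, 8 and 10. In CPM its groups just lay apart (0.81 to 1.075 against 1.085 to 1.559), as in 9.21% of all genes tested. Mzb1, a chaperone of antibody assembly, had 37, 47 and 32 reads against 50, 69 and 28. Sdc1, the plasma cell surface marker CD138, which other cells of the tissue also make, had 68, 96 and 94 against 58, 60 and 46. In F0, Irf4, a transcription factor of B and plasma cells, was called lower on the LPD (log2FC -0.68, adjusted p = 0.0164), and its effect differed from that in F1 (interaction -0.97, adjusted p = 0.00965, edgeR). Of the 12 plasma cell genes tested in F0, 5 had a positive and 7 a negative log2FC on the LPD. Between generations, Xbp1 (0.71), which drives antibody secretion but is not limited to plasma cells, and Irf4 (0.41) were called higher in F0. Most of the list did not go with these 2 genes, since 5 of the 13 tested there were positive and 8 negative, with a median of -0.064.

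The recombinase genes Rag1 and Rag2, which join antibody gene segments, had few or no reads. Rag2 had 0 reads in all 10 mice, which allows up to 0.3 to 0.468 CPM, and Rag1 had 0 to 3 reads. The 10 genes on a list of antibody gene joining and diversification, most of them DNA repair genes of many cell types, summed to 171 to 223 CPM. Of these, 6 were tested in the offspring, and none was called there or in F0 or between the generations by edgeR's test, with 3, 0 and 2 at an unadjusted p under 0.05. Among 11 receptors that bind antibodies, Fcgrt, the receptor that protects IgG from breakdown, had 1318 to 1888 reads per mouse, and its log2FC was -0.12 in F1 and -0.04 in F0. Pigr, which carries IgA across epithelia, had 1 to 16 reads. Fcgr1, a high-affinity IgG receptor of macrophages, had 61, 98 and 48 reads in the sons of CD fathers and 17, 30 and 21 in pLPD offspring. It was called lower at the limit of the threshold, with a log2FC of -1.37. Beside it, 6 of 9 macrophage genes were called lower in pLPD offspring, where 1.02% of all genes were. The sum of the 9 was 1221 to 1516 CPM against 830 to 991 CPM. Between generations, Fcgr2b (0.62), Fcgr3 (0.58) and Fcer1g (0.56) were called higher and Trim21 (-0.28) lower in F0.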

How the data were processed

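RNA-seq of iWAT from 10 mice, 1 library each, was analysed. According to the study's methods the authors mapped the reads to mm10 with CLC Genomics Workbench and deposited, per gene and mouse, counts of total and unique exon, intron and whole gene reads. The annotation release and the strand setting are not given in the sources used here. RPKM values deposited beside the counts served to compare levels between genes, and the deposited TPM values entered no result.

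Total exon reads were tested with edgeR 4.0.16 in R 4.3.3 (filterByExpr, TMM scaling, quasi-likelihood test, Benjamini-Hochberg adjustment over all genes tested, threshold 0.05), after the procedure was tested on simulated data. F1 and F0 were fitted separately, and F0 against F1 and the interaction came from 1 fit of the 4 groups. CPM values use TMM-scaled library sizes. Limits at a count of 0 (3 reads) and exact 95% binomial intervals cover counting error only. The study gives different mothers for the 3 offspring of a group, but not whether they shared a father or whether F0 males shared a litter, and p-values measure the spread between these mice. Alternatives were DESeq2 1.42.0, its size factors in edgeR, no or a stricter filter, unique or whole gene reads, the replicate block, 1 fit of all groups, and leaving out each mouse. A motif search upstream of V segments was not run.

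Named were the constant regions, the lambda genes, the 5 heavy and 5 kappa V segments with the most reads, genes past the threshold, and from 10 lists of other genes the leading or called ones, of which some are not reported here. Igkv5-43 and Igkv17-127 were named after their values were seen. The genes and lists were chosen with earlier results of these data known. Sequences and shared stretches of 36 bases are from GENCODE vM21.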

Additional observations from a re-analysis of the deposited data

Results flagged for a closer look

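The few reads of the heavy V segment Ighv1-5 differed in opposite directions between the diets of the 2 generations. In the offspring no count exceeded the floor of 3 reads. It had 1, 0 and 0 reads in the sons of CD fathers and 2, 3 and 2 in pLPD offspring, a difference of mean CPM (LPD minus CD) of 0.297. In F0 it had 3 and 7 reads on the CD and 2 and 1 on the LPD, a difference of -0.354 CPM. The mice of either generation did not overlap between the diets, but Ighv1-5 did not pass the filter and the difference was not tested. Such opposite separation was found in 2 of the 104 immunoglobulin genes (1.92%) and in 4.02% of the 17345 genes with 20 or more reads. The second was Igkv6-15, whose interaction had an adjusted p of 0.322 in edgeR's test.

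The immunoglobulin V and C genes that had under 20 reads in all entered no comparison. Summed in F0, they had 81 and 88 reads in CD-fed males and 140 and 99 in LPD-fed males. The highest level on the CD was 9.07 CPM and the lowest on the LPD was 11.6 CPM. This difference was not tested. Groups of 2 or 3 mice are too small to single out a mouse that stands apart.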

How the results depend on the processing

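For 35 pairs of a named immunoglobulin gene and a comparison, 483 values under alternatives were obtained, of which 434 kept direction and side of the threshold, 28 lost the threshold, 15 gained it and 6 turned sign, the last never in a called gene. In F1 the count of 1 called gene became 0 with DESeq2 (where Ighg2b had a log2FC of 2.70 and no adjusted p), 0 with at least 10 reads in every mouse (Ighg2b was not tested), 0 with whole gene reads, 3 without a filter, and 0 to 1 with single mice left out (Ighd in place of Ighg2b without F1-LPD replicate 3). In F0 the count of 0 became 5 without a filter and 4 with the replicate block (Igkc, Iglc2 and Iglc3 higher, Igha lower). Leaving out an F0 mouse left 1 mouse in its group, so a count from those fits cannot show whether the result is stable. Between generations the count of 8 became 4 with at least 10 reads in every mouse, which fewer genes pass, and 6 with DESeq2 (without Ighv3-6 and Igkv6-25). It became 6 with unique reads, where Igkc and Iglc3, with 24 and 5 unique reads over 10 mice, had too few to be tested. It was 9 without a filter, 9 with whole gene reads, and 5 to 7 with single mice left out. The interaction count of 0 became 2 without a filter. The log2 ratio of summed CPM in F0, 0.199, ranged from 0.0532 to 0.362. With single mice left out, F0 diet values ranged from -0.01 to 0.58 for Ighg2b, from -0.82 to 0.84 for Ighg2c and from -0.08 to 0.28 for Ighm, and Iglc1 between generations ranged from -0.09 to 0.27 and was -0.04 with the replicate block. Same-numbered mice deviated together by correlations of -0.009 to 0.026 in F1 and 0.048 in F0. With 2 mice per F0 group, the F0 value is the same for both numbers by construction. These correlations cannot show whether same-numbered mice shared a father, a litter or a preparation. The block left the F1 count at 1 and gave 7 between generations (6 higher, Ighv1-72 lower). Unless stated, the cause was not tested. Switched isotypes and most V segments rest on few reads, which limits what these depths can show.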
